A study of Mus musculus with 8 samples.

Results

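The interferon-induced genes were followed in ileal tumours of mice carrying VP16LXRa and of control mice carrying VP16. The set is a list of 42 genes, matched by symbol to the probes of the array. It was divided into 16 genes of the interferon regulatory factor (IRF), GTPase and interferon-γ type and 26 antiviral genes of the Ifit, Oas and Mx type. Probes were found for 40 of the 42 genes, 64 probes of 25697 on the array, and the levels of Isg15 and Xaf1 were not analysed here. Of the 40, 35 genes with 52 probes were detected on enough arrays to be tested, among 13426 probes of 10159 genes in all.

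RNA was measured on Illumina BeadChips, glass arrays of beads that each carry one probe sequence, in 4 VP16LXRa tumours (numbered 5 to 8 in the labels) and 4 control tumours (numbered 1 to 4). The VP16LXRa group had the genotype APCmin/+/VP16LXRa, in which liver X receptor α, a sterol-sensing nuclear receptor, is joined to the transactivation domain of a viral protein, VP16. The control group had the genotype APCmin/+/VP16, with the VP16 transgene alone. All the mice therefore carried the Apc Min mutation, which causes intestinal tumours, and all were 8 months old and of a mixed C57BL/6J-FVBN strain. The sources used here state neither the promoter that drives the transgenes nor the sex of the mice, nor that each array is a separate animal. The p-values therefore measure only the spread between these samples, which may be technical.

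Interferons are secreted signals that cells release when they sense viral or bacterial nucleic acid, or, for interferon-γ, that T and NK cells release when activated. They bind receptors whose Janus kinases phosphorylate STAT proteins. A STAT complex with IRF9 then binds the interferon-stimulated response element (ISRE), and other STAT complexes bind the gamma-activated site (GAS), to switch on a shared programme of antiviral and immune genes. In the intestine this programme is active at a low level in epithelium and immune cells even without infection.

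The interferon-induced genes were mostly at a lower level in VP16LXRa than in control tumours, by small amounts that did not pass the test. Of the 35 tested genes 32 had a lower mean in VP16LXRa, with a median difference of -0.43 on the log2 scale, or 1.35-fold lower. Over all 10159 genes tested, 47.0% were lower and the median difference was 0.021. The largest differences were those of Ifit2 at -1.19 and Oas3 at -0.83 in one direction and Ifitm3 at 0.82 in the other. Oas3 was dim, detected on 2 VP16LXRa arrays and 3 controls. No member had an adjusted p under 0.05 in limma with Benjamini-Hochberg adjustment over all tested probes. The smallest was 0.998, and 0% of all genes passed that threshold. No member had an unadjusted p under 0.05, which 0.669% of all genes had with a lower and 1.89% with a higher level in VP16LXRa. None had groups that did not overlap, which 0.719% of all genes had with VP16LXRa below and 1.14% with VP16LXRa above. Of all 52 member probes, 47 were lower and 1 of these, the second Zbp1 probe, had an unadjusted p under 0.05.

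The 2 classes had like medians. The IRF, GTPase and interferon-γ type genes were lower for 13 of 14 tested members, with a median of -0.41 and a range from -0.67 to 0.38. The antiviral genes were lower for 19 of 21, with a median of -0.43 and a range from -1.19 to 0.82. Because genes detected on fewer than 4 arrays were left out, the count was repeated with no filter, and 34 of 40 genes with a probe were lower (median -0.36). Iigp1, Gbp4, Ifit1, Oas1a and Ifi44 were the 5 genes with a probe but no test. Gbp4 and Ifit1 were detected on 0 of 8 arrays, Iigp1 on 1 VP16LXRa array and 0 controls, Oas1a on 1 VP16LXRa array and 2 controls, and the better detected of 2 Ifi44 probes on 0 VP16LXRa arrays and 2 controls.

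A pair of arrays stood apart and carry much of what follows. Between 49.0% and 54.7% of probes were detected per array, with a median intensity between 134 and 165. Each array was correlated with the remaining 7 over all tested probes, and the median coefficient was 0.869 for VP16LXRa 5, 0.910 for control 4 and 0.932 to 0.942 for the other 6. Eif2s3y, a Y-linked translation factor, had a log2 level of 9.79 in VP16LXRa 5 and of 5.09 to 5.88 in VP16LXRa 6 to 8, against 9.35 to 9.84 in controls 1 to 3 and 4.82 in control 4, where it was not detected. VP16LXRa 5 is thus on the side of controls 1 to 3 for this gene, and control 4 on the side of VP16LXRa 6 to 8. Of 15 Y-linked probes, 7 were detected on no array, those of Sry, Usp9y, Zfy1 and Zfy2 among them, and 3 on all 8. The brightest of these was 1 of 3 Ddx3y probes, at 11.14 to 11.70 in VP16LXRa and 10.84 to 11.53 in control tumours, and the other Ddx3y probes were detected on 1 and 2 arrays. Of 2 probes for Xist, the RNA that coats the inactive X chromosome, 1 was detected on no array and 1 on a single array. Nr1h3, which encodes the liver X receptor α of the transgene, was at 10.06, 9.73, 10.01 and 10.50 in VP16LXRa 5 to 8, against 9.43, 10.42, 10.39 and 8.93 in controls 1 to 4, so the groups overlapped and its level did not check the labels. Whether the division by Eif2s3y is one of sex, or of exchanged labels of VP16LXRa 5 and control 4, was not tested, and all the differences between VP16LXRa and control tumours take the labels as given. In bulk tumour RNA, fewer cells of a type and less RNA per cell cannot be told apart.

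Control 4 was low in the interferon-induced genes and controls 1 to 3 were high. Each gene's log2 level was set against its own mean over the 8 arrays, and these deviations were averaged over the 35 genes. On this scale VP16LXRa 5 to 8 were at -0.23, -0.02, -0.14 and -0.24, and controls 1 to 4 at 0.37, 0.48, 0.60 and -0.81. All 4 VP16LXRa arrays lay below controls 1 to 3 and above control 4, so the control group covered a wider range than the VP16LXRa group and enclosed it. The IRF, GTPase and interferon-γ type genes averaged -0.10, 0.08, -0.33 and -0.21 in VP16LXRa 5 to 8, against 0.21, 0.39, 0.60 and -0.64 in controls 1 to 4. The antiviral genes averaged -0.31, -0.09, -0.01 and -0.27 in VP16LXRa 5 to 8, against 0.47, 0.53, 0.60 and -0.92 in controls 1 to 4. Both classes thus had the same order of groups.

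Gene by gene, control 4 was the lowest of the 4 controls for 30 of 35 members (85.7%), against 30.2% of all genes tested. It was below every VP16LXRa array for 21 of 35 members (60%), against 23.9% of all genes. Controls 1 to 3 were above all the other 5 arrays for 18 of 35 members (51.4%), against 2.96% of all genes. No member had its highest level in control 4, and 30 of 35 had it in one of controls 1 to 3.

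**Figure D1:**
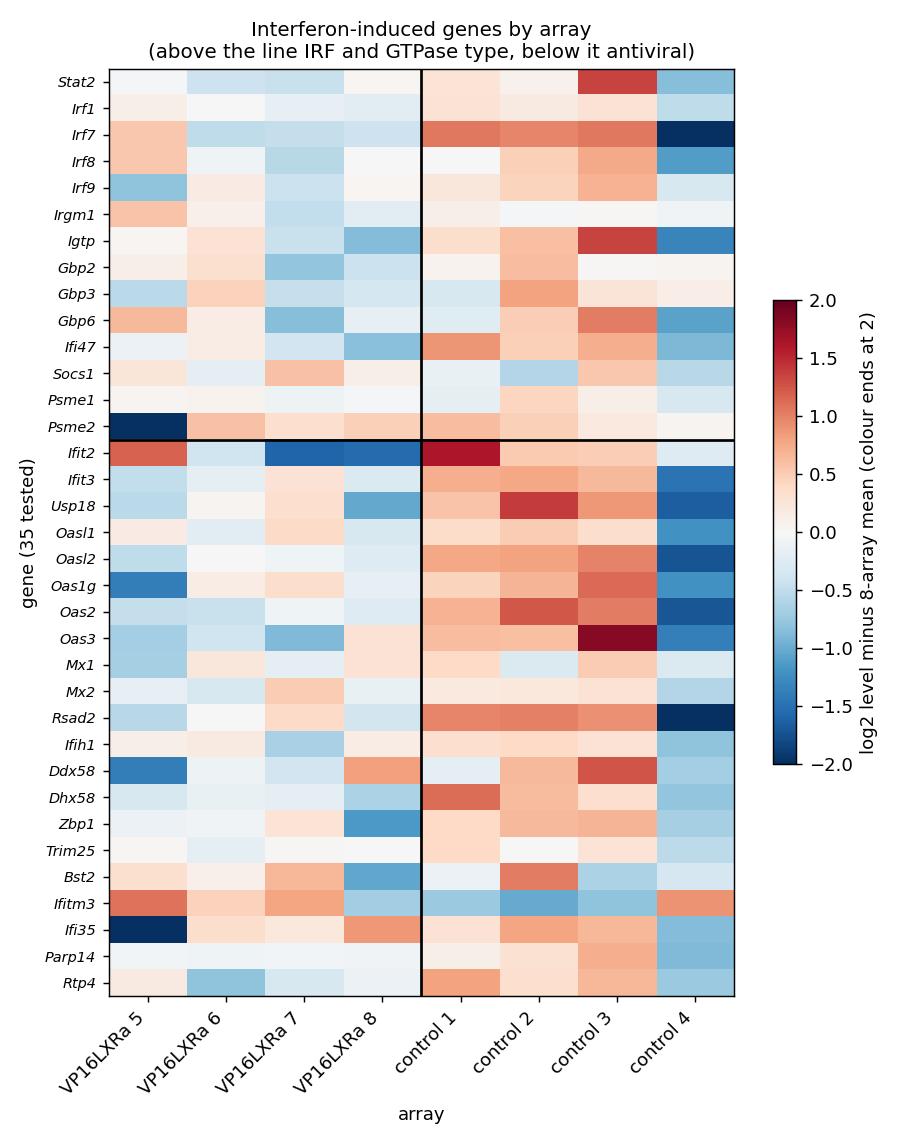
Colour shows each array's log2 level minus the 8-array mean, for the 35 tested interferon-induced genes in rows and the 8 arrays in columns, VP16LXRa to the left. Most genes are high in controls 1 to 3 and low in control 4, with VP16LXRa arrays between them; Ifitm3 runs the other way.

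Promoters of the listed genes, tested or not, were searched for the letters of the 2 interferon elements. The list was chosen as interferon-induced, so matches cannot tell why most tested genes were high and low in the same arrays. Ifitm3, which ran the other way, is shown beside them. RefSeq windows (build GRCm38.p6) of 300 bases, 250 before to 50 after the annotated start, were matched by symbol for 31 of the 42 listed genes. The ISRE was searched as GAAA, any 2 bases and GAAA again, and the GAS as TTC, any 3 bases and GAA. Both strands were searched, and overlapping matches were counted. The ISRE letters lay in at least one window of 18 of 31 members (58.1%), against 1079 of 27025 genes (3.99%). The GAS letters lay in 8 of 31 (25.8%), against 9.55% of all genes. The ISRE letters were in 7 of 13 IRF, GTPase and interferon-γ type genes and 11 of 18 antiviral genes. A match is a description of the letters and not a binding site. The 7 windows below, chosen after the matches were seen, are written 5′ to 3′ on the gene's strand, with the matched letters in capitals.
Irf1, chr11:53769764-53770063, plus strand: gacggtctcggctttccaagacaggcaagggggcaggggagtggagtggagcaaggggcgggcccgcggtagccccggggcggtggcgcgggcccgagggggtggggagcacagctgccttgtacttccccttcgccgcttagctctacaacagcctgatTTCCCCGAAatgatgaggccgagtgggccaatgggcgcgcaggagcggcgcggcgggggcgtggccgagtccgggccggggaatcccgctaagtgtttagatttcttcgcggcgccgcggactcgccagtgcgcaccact
Igtp, chr11:58199306-58199605, plus strand: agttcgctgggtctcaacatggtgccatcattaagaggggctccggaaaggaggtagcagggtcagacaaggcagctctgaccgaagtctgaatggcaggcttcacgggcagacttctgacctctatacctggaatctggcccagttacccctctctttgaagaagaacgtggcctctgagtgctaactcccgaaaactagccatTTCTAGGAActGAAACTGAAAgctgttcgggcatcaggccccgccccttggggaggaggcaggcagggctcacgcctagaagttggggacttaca
Ifit3, chr19:34583279-34583578, plus strand: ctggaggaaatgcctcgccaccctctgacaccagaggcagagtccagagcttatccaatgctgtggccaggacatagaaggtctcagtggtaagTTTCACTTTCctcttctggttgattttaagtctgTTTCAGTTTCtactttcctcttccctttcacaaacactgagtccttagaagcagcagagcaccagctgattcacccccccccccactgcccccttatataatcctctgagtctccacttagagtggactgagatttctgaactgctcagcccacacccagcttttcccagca
Oas1g, chr5:120887564-120887863, minus strand: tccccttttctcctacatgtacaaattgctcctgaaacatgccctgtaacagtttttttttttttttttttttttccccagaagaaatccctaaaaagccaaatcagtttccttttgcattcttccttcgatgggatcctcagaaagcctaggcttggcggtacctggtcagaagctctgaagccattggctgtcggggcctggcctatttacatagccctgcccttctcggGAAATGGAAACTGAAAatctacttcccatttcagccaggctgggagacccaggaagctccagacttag
Oas3, chr5:120777610-120777909, minus strand: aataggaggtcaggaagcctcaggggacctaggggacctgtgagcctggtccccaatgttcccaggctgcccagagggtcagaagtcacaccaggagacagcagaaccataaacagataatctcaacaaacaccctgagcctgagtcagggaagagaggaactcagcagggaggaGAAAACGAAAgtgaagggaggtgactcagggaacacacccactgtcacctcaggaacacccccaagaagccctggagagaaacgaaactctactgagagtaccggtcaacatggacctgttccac
Rsad2, chr12:26456403-26456702, minus strand: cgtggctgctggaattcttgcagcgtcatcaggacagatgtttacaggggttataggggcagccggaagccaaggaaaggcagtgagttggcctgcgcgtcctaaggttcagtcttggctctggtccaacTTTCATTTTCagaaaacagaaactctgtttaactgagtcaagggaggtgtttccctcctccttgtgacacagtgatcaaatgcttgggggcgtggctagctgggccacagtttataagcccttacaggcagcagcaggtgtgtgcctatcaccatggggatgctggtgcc
Ifitm3, chr7:141010695-141010994, minus strand: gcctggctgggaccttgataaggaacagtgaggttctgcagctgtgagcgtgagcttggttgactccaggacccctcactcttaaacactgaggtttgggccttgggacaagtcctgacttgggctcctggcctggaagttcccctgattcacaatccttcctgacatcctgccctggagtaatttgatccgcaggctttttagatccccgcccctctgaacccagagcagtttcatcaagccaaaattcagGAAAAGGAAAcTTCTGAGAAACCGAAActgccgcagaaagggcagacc

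The Irf1 window holds the GAS letters and no ISRE letters, and the Igtp window holds both. In Ifit3 the 2 ISRE matches read on the other strand, as does the match in Rsad2. In Oas1g and Ifitm3 the capitals run together because matches overlap or adjoin. Irf7, Oasl2 and Ifi47, with controls 1 to 3 above and control 4 below every VP16LXRa array, had neither set of letters in their windows. The members with and without the ISRE letters were not compared.

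The transcription factors of the pathway were all lower in VP16LXRa, with a median difference of -0.43 over 5 genes. Irf7, which amplifies type I interferon production, was at 9.22, 8.18, 8.20 and 8.26 in VP16LXRa 5 to 8, against 9.74, 9.66, 9.73 and 6.46 in controls 1 to 4. Controls 1 to 3 lay above every VP16LXRa array and control 4 far below them, so the groups overlapped. The means were 8.46 ± 0.50 in VP16LXRa and 8.90 ± 1.63 in control tumours (SD, n = 4 each), a difference of -0.44 (SE 0.71, adjusted p = 0.998 in limma). Irf1, the factor that interferon-γ induces through its GAS, was at 13.36, 13.25, 13.09 and 13.04 in VP16LXRa 5 to 8, against 13.54, 13.43, 13.55 and 12.75 in controls 1 to 4. It differed by -0.13 (SE 0.24), again with control 4 alone below the VP16LXRa arrays. Irf9, the DNA-binding partner of STAT2, was at 7.97, 8.95, 8.34 and 8.81 in VP16LXRa 5 to 8, against 9.001, 9.21, 9.46 and 8.46 in controls 1 to 4. It differed by -0.52 (SE 0.30), and here control 4 lay among the VP16LXRa arrays. Stat2 differed by -0.43 and Irf8, a factor of macrophages and dendritic cells, by -0.05.

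The interferon-inducible GTPases, which attack the vacuoles of intracellular microbes, were lower for all 6 tested genes, with a median of -0.42. Ifi47 (also called Irg47) was at 10.003, 10.28, 9.74 and 9.29 in VP16LXRa 5 to 8, against 11.01, 10.60, 10.85 and 9.23 in controls 1 to 4. Igtp (Irgm3) was at 10.50, 10.76, 10.03 and 9.60 in VP16LXRa 5 to 8, against 10.82, 11.08, 11.82 and 9.16 in controls 1 to 4. In both genes controls 1 to 3 were above every VP16LXRa array and control 4 was below all of them. The differences were -0.60 (SE 0.41) for Ifi47 and -0.50 (SE 0.53) for Igtp. Gbp3, a guanylate-binding protein, was at 7.27, 8.26, 7.33 and 7.46 in VP16LXRa 5 to 8, against 7.49, 8.61, 8.06 and 7.94 in controls 1 to 4. Its groups overlapped without a low control 4, and it differed by -0.45 (SE 0.32). Irgm1, a regulator of the other GTPases, was at 13.69, 13.23, 12.64 and 12.90 in VP16LXRa 5 to 8, against 13.24, 13.09, 13.15 and 13.06 in controls 1 to 4. The controls were close together by this probe, and the difference was -0.02 (SE 0.25, 95% interval from -0.60 to 0.55). By the second tested Irgm1 probe controls 1 to 4 were further apart, at 9.21, 8.63, 9.62 and 7.92. Gbp2 and Gbp6 differed by -0.38 and -0.11.

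Socs1, the inhibitor that shuts off Janus kinase signalling, was the one member of its class with a higher mean in VP16LXRa, by 0.38 (SE 0.30). It was dim, detected on 3 VP16LXRa arrays and 1 control array, at 5.37, 4.94, 5.72 and 5.26 in VP16LXRa 5 to 8, against 4.98, 4.54, 5.67 and 4.58 in controls 1 to 4. The proteasome activator genes Psme1 and Psme2 encode the PA28 cap that interferon-γ adds to the proteasome for antigen processing. Psme1 was at 12.78, 12.79, 12.63 and 12.68 in VP16LXRa 5 to 8, against 12.53, 13.15, 12.84 and 12.41 in controls 1 to 4. It differed by -0.01 (SE 0.22), and its VP16LXRa values lay within the control range. Psme2 was at 6.29, 9.60, 9.35 and 9.50 in VP16LXRa 5 to 8, against 9.63, 9.50, 9.21 and 9.07 in controls 1 to 4. Its difference of -0.67 (SE 0.68) rested on VP16LXRa 5 alone and was 0.13 without that array.

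Among the antiviral genes, the Ifit proteins bind foreign RNA and block its translation. Ifit2 had the largest difference of all members. It was at 8.70, 7.12, 5.92 and 5.99 in VP16LXRa 5 to 8, against 9.14, 8.05, 8.01 and 7.28 in controls 1 to 4. VP16LXRa 6 to 8 lay below every control, and VP16LXRa 5 was within the control range. The means were 6.93 ± 1.30 in VP16LXRa and 8.12 ± 0.77 in control tumours (SD, n = 4 each), a difference of -1.19 (SE 0.63, unadjusted p = 0.093 and adjusted p = 0.998 in limma). Without VP16LXRa 5 it was -1.77, with an unadjusted p of 0.00489 in limma and no overlap of the groups. In that comparison 1.17% of all genes had an unadjusted p under 0.05 with a lower and 1.48% with a higher level in VP16LXRa. The groups did not overlap for 1.92% of all genes with VP16LXRa below and 1.84% with VP16LXRa above. Ifit2 was the one member among them, and 0 members and 0.0101% of all genes had an adjusted p under 0.05. VP16LXRa 5 was the only VP16LXRa array within the control range of Ifit2, so its removal gives no independent support. A second Ifit2 probe differed by -1.10. Ifit3 was at 8.10, 8.40, 8.87 and 8.29 in VP16LXRa 5 to 8, against 9.32, 9.36, 9.23 and 7.11 in controls 1 to 4, with control 4 far below all other arrays. It differed by -0.34 (SE 0.49). Usp18, which removes ISG15 from proteins and restrains the interferon receptor, was at 8.61, 9.21, 9.50 and 8.13 in VP16LXRa 5 to 8, against 9.73, 10.55, 10.02 and 7.51 in controls 1 to 4. It differed by -0.59 (SE 0.62).

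The oligoadenylate synthetases make the small messenger that activates RNase L, and in mice Oasl1 represses Irf7 translation. All 5 tested genes had a lower mean in VP16LXRa, with a median of -0.52. Oas2 was at 6.53, 6.56, 6.91 and 6.75 in VP16LXRa 5 to 8, against 7.71, 8.25, 8.03 and 5.29 in controls 1 to 4. Oas3 was at 5.08, 5.37, 4.88 and 6.05 in VP16LXRa 5 to 8, against 6.37, 6.37, 7.58 and 4.39 in controls 1 to 4. These are dim levels, and the other Oas3 probe was detected on 0 VP16LXRa arrays and 0 controls. Oasl2 was at 10.37, 10.87, 10.80 and 10.63 in VP16LXRa 5 to 8, against 11.66, 11.69, 11.88 and 9.16 in controls 1 to 4. In these 3 genes the VP16LXRa arrays formed a band below controls 1 to 3 and above control 4. The differences were -0.63 (SE 0.58) for Oas2, -0.83 (SE 0.60) for Oas3 and -0.43 (SE 0.56) for Oasl2. Oasl1 was at 10.45, 10.06, 10.66 and 9.96 in VP16LXRa 5 to 8, against 10.65, 10.78, 10.63 and 9.07 in controls 1 to 4. It differed by -0.0018 (SE 0.39), with control 4 again lowest. Oas1g was at 8.76, 10.28, 10.49 and 9.98 in VP16LXRa 5 to 8, against 10.59, 10.82, 11.27 and 8.92 in controls 1 to 4. It differed by -0.52 (SE 0.55), or -0.15 without VP16LXRa 5, and its low arrays were VP16LXRa 5 and control 4. Oas1a and Oas1g are close relatives in the genome, and whether the Oas1g probes tell them apart was not tested.

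The Mx proteins, GTPases that trap viral particles and are defective in most laboratory mouse strains, differed by -0.17 (Mx1) and -0.06 (Mx2). Rsad2, or viperin, which makes a chain-terminating nucleotide, was at 8.06, 8.62, 8.996 and 8.24 in VP16LXRa 5 to 8, against 9.59, 9.61, 9.53 and 6.23 in controls 1 to 4. Controls 1 to 3 were above and control 4 below every VP16LXRa array. It differed by -0.26 (SE 0.72), less than the SD of 1.67 among the controls (n = 4). The 5 genes for sensors of nucleic acid and their regulators were all lower, with a median of -0.53. Dhx58, which encodes LGP2, an RNA-binding regulator of RIG-I and MDA5, was at 6.83, 7.01, 6.97 and 6.52 in VP16LXRa 5 to 8, against 8.27, 7.79, 7.497 and 6.36 in controls 1 to 4. It differed by -0.65 (SE 0.38), with only control 4 below the VP16LXRa arrays. Ddx58 (RIG-I) differed by -0.53, or -0.15 without VP16LXRa 5. Zbp1, a sensor of Z-form nucleic acid, differed by -0.53, or -0.57 without that array. Ifih1 (MDA5) differed by -0.11 and Trim25, a ubiquitin ligase that acts on RIG-I, by -0.08.

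The membrane proteins that block viral entry or release did not share the direction of the others. Ifitm3, which hinders fusion of viruses in endosomes, was at 13.96, 13.34, 13.66 and 12.17 in VP16LXRa 5 to 8, against 12.14, 11.86, 12.07 and 13.78 in controls 1 to 4. It was high in VP16LXRa 5 to 7 and in control 4, and low in VP16LXRa 8 and in controls 1 to 3, so control 4, low in most members, was here the highest control. The means were 13.28 ± 0.78 in VP16LXRa and 12.46 ± 0.88 in control tumours (SD, n = 4 each), a difference of 0.82 (SE 0.51, adjusted p = 0.998 in limma). Bst2, or tetherin, differed by 0.03. Parp14, an ADP-ribosyltransferase, was at 11.32, 11.29, 11.33 and 11.31 in VP16LXRa 5 to 8, against 11.50, 11.69, 12.11 and 10.51 in controls 1 to 4. The 4 VP16LXRa values were nearly equal and lay within the control range, and the difference was -0.14 (SE 0.32). Rtp4, a chaperone of cell-surface receptors, differed by -0.53 and Ifi35 by -0.44, or 0.25 without VP16LXRa 5.

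**Figure D2:**
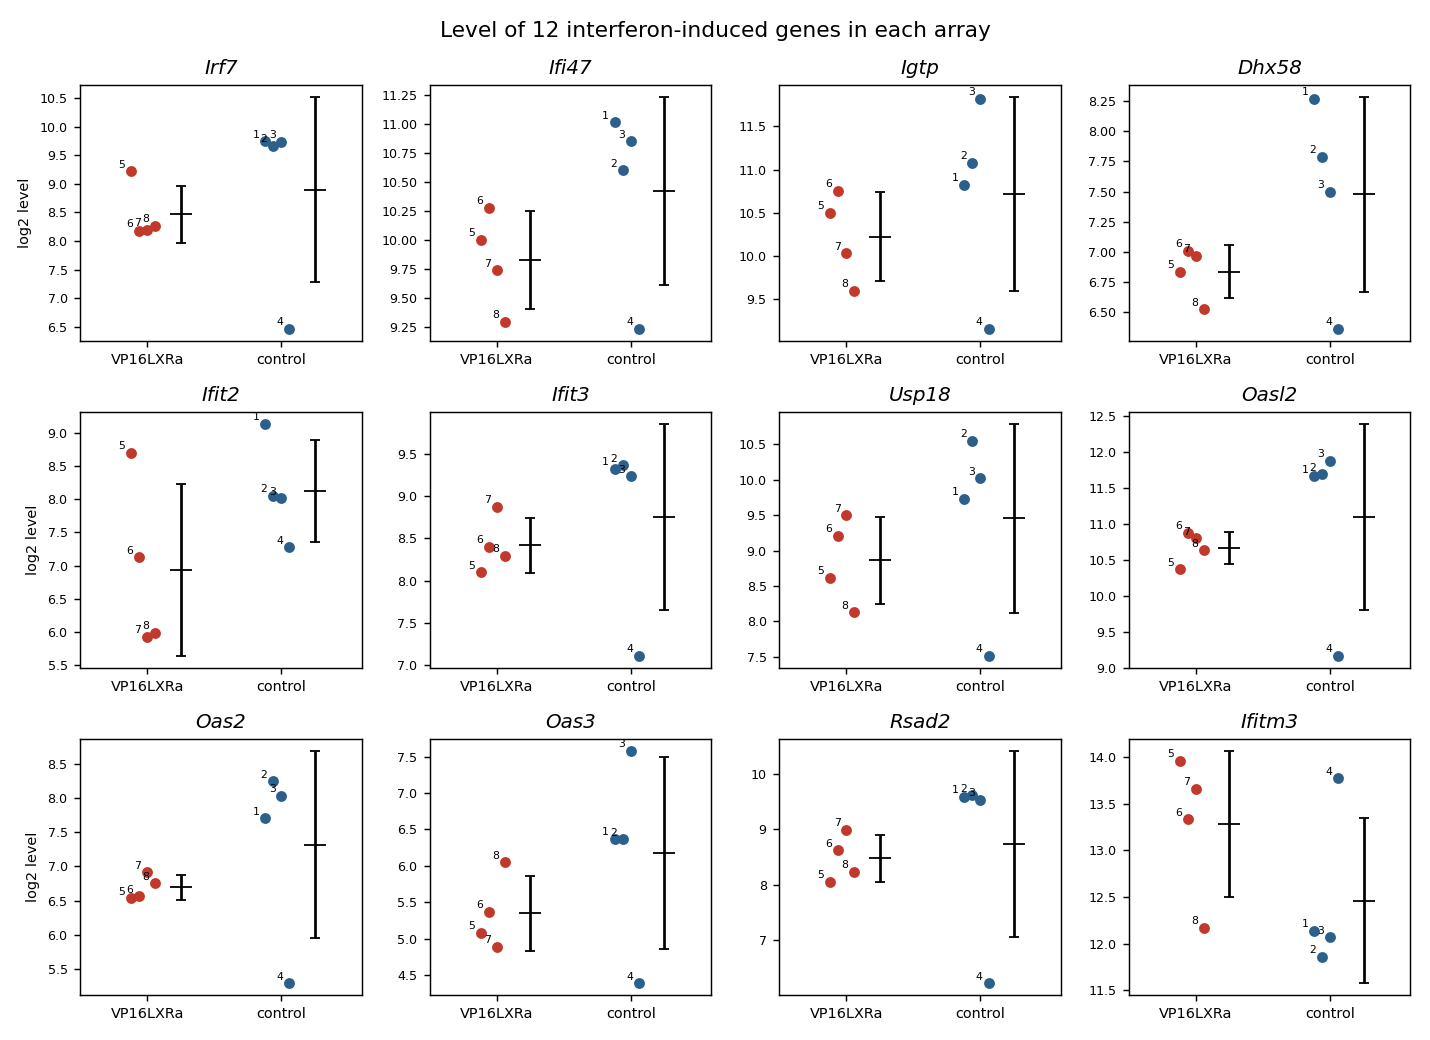
Log2 levels of 12 interferon-induced genes in the 8 arrays, one point per array with its number, and mean ± SD beside each group of 4. VP16LXRa is on the left and control on the right of each panel, and each panel has its own axis. Control 4 is the lowest array in 10 of the panels, the highest control for Ifitm3, and the lowest control for Ifit2.

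The size of the shift depended on single arrays. Without control 4, 33 of 35 members were lower in VP16LXRa, where 48.5% of all genes were, with a median of -0.77 (-0.48 for the IRF, GTPase and interferon-γ type genes and -0.85 for the antiviral genes). At an unadjusted p under 0.05 in limma, 15 members were then lower and 1, Ifitm3, was higher, where 2.10% and 4.09% of all genes were. The groups did not overlap for 18 members with VP16LXRa below and 1 above, against 3.42% and 4.57% of all genes. No member had an adjusted p under 0.05, the smallest being 0.669 for Oas2, and 0% of all genes passed. Oas2 then differed by -1.32 (SE 0.23), Oas3 by -1.42 (SE 0.40), Irf7 by -1.26 (SE 0.30), Usp18 by -1.25 (SE 0.38), Rsad2 by -1.11 (SE 0.27) and Oasl2 by -1.08 (SE 0.22). Control 4 was itself the array low in these genes, so its removal gives no independent support. Without VP16LXRa 5, 30 of 34 members were lower, where 51.4% of all genes were, and the median was -0.24. The class medians were then -0.33 for the IRF, GTPase and interferon-γ type genes and -0.15 for the antiviral genes. Leaving out control 2 or control 3 gave 25 of 35 and 26 of 33 lower, with medians of -0.23 and -0.18.

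**Figure D3:**
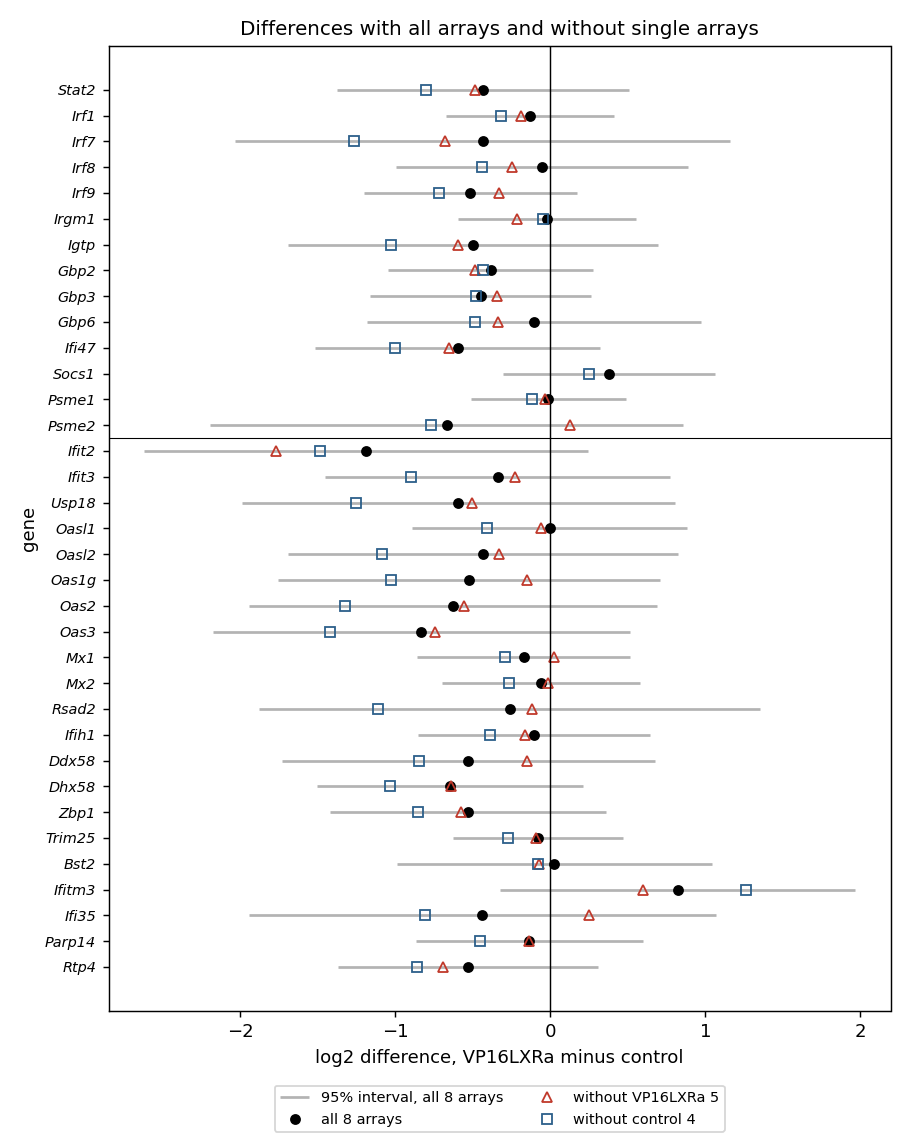
Log2 difference, VP16LXRa minus control, for each of the 35 tested genes, with the 95% interval from limma over all 8 arrays. Open squares give the value without control 4 and triangles the value without VP16LXRa 5 (Socs1 was not tested there). All intervals with 8 arrays include 0, and the squares lie left of the filled points for most antiviral genes.

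Within the arrays alike in Eif2s3y, the direction was not the same. On the high side, VP16LXRa 5 was below the mean of controls 1 to 3 for 28 of 35 members, with a median difference of -0.61, where 38.9% of all genes were lower. On the low side, the mean of VP16LXRa 6 to 8 was below control 4 for 5 of 35 members and above it for 30, with a median difference of 0.60, where 52.5% of all genes were lower. Rsad2 differed by -1.52 on the high side and by 2.39 on the low side, Irf7 by -0.49 and 1.75, and Oasl2 by -1.38 and 1.61. Ifitm3 differed by 1.94 and -0.72, and Ifit2 by 0.30 and -0.93. Each side rests on a single array of one group, so neither value has a replicate check. When the fit was given a term for the Eif2s3y side, 17 of 35 members were lower, the median was 0.10 and no member had an unadjusted p under 0.05 in limma, the smallest being 0.071. The Eif2s3y division was chosen after the data were seen, and its part in the result cannot be told apart from single arrays.

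Probes of one gene did not always give the same value, and several of the disagreements lay in VP16LXRa 5. Of the 52 member probes, 10 (19.2%) were more than 1 below the lowest other VP16LXRa array in VP16LXRa 5, against 9.65% of all probes. Irf1 had 5 tested probes. For 3 of them VP16LXRa 5 was the lowest array, at 4.45, 7.00 and 7.03, where the lowest other array of the same probe was at 5.44, 8.90 and 8.69. For its brightest probe VP16LXRa 5 was the highest VP16LXRa array. Oas1g was at 8.76 by one probe and 4.89 by the other in VP16LXRa 5, where the other VP16LXRa arrays were at 9.98 to 10.49 and 8.63 to 9.41. The second Oas1g probe differed by -1.40, Usp18's by -0.97 and the dimmest of Oasl1 by -0.92. The second brightest Oasl1 probe differed by 0.10, and the second probes of Gbp6, Gbp3 and Psme1 by 0.13, -0.21 and -0.11. The second probes of Ifit3, Irf9, Oasl2 and Irgm1 differed by -0.63, -0.56, -0.63 and -0.40. In control 4, 23 of 52 member probes (44.2%) were more than 1 below the lowest other control, against 3.08% of all probes. Both tested probes of Oasl2, Usp18 and Ifit3 had their lowest control value in control 4.

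**Figure D4:**
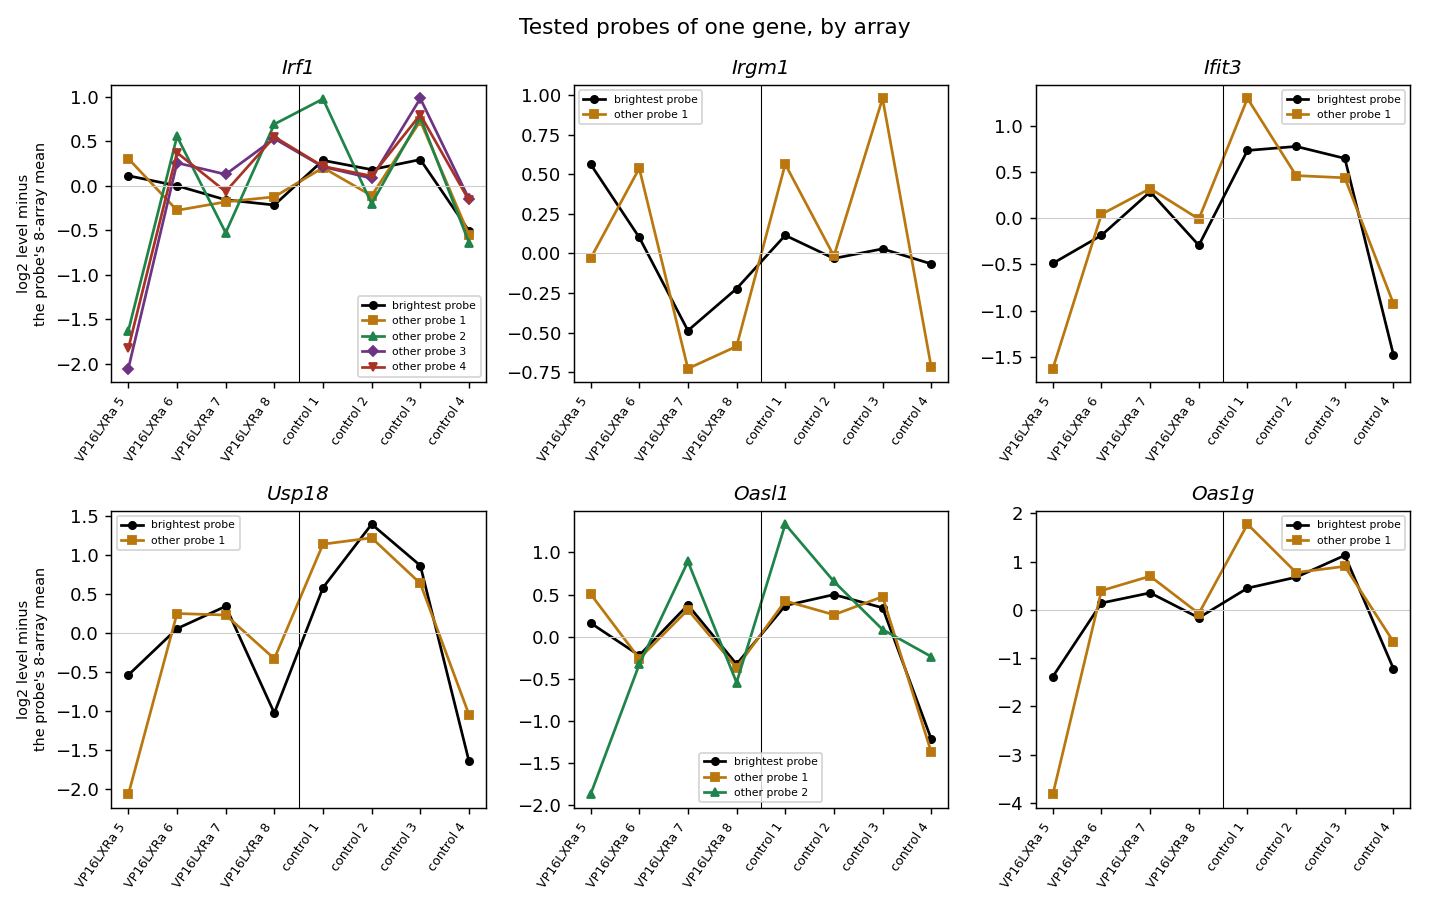
Log2 level minus the probe's own 8-array mean, for all tested probes of 6 genes, across the 8 arrays with VP16LXRa to the left of the line. The probes of a gene run together in most arrays and part in VP16LXRa 5, where 3 Irf1 probes and the dimmer probes of Ifit3, Usp18, Oasl1 and Oas1g drop.

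Genes upstream of the set had smaller median differences, and none passed the test. Of the interferon genes themselves, 2 of 20 listed were tested, Ifna6 at -0.08 and Ifna1 at 0.06, and 9, among them Ifnb1, were detected on no array. Of the receptors and Janus kinases, 7 of 8 tested genes were lower, with a median of -0.22. Ifngr1, a chain of the interferon-γ receptor, was at 8.23, 9.71, 9.57 and 10.16 in VP16LXRa 5 to 8, against 10.54, 9.97, 10.55 and 9.68 in controls 1 to 4. Ifnar2, a chain of the type I interferon receptor, was at 5.63, 5.93, 5.79 and 5.45 in VP16LXRa 5 to 8, against 5.83, 6.78, 5.58 and 6.12 in controls 1 to 4. The groups overlapped in both, with differences of -0.77 (SE 0.42) and -0.38 (SE 0.28). Of 11 negative regulators 5 were lower (median 0.03), with Ptpn6, a phosphatase, at -0.56 and Cish, a SOCS family protein, at 0.34. Of 11 inducers of interferon 5 were lower (median 0.02), with Irf5 at -0.66 and Ticam1, the adaptor of TLR3, at -0.70. Ticam1 was at 4.65 in VP16LXRa 5 and 6.30 to 7.49 in VP16LXRa 6 to 8, against 5.93 to 7.56 in controls. No gene of these 4 lists had an unadjusted p under 0.05 in limma.

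Other interferon-induced genes, listed apart from the 42, were lower for 29 of 33 tested, where 47.0% of all genes were, with a median of -0.36. Their mean deviations were -0.50, -0.0015, -0.25 and -0.06 in VP16LXRa 5 to 8, against -0.01, 0.81, 0.59 and -0.58 in controls 1 to 4. Unlike in the members, control 1 lay just below VP16LXRa 6, and control 4 was again the lowest array. The T cell chemokine Cxcl10 was at 4.71, 5.27, 5.36 and 4.73 in VP16LXRa 5 to 8, against 6.06, 5.82, 6.41 and 5.66 in controls 1 to 4. Every VP16LXRa array lay below every control, control 4 included, although 2 of the VP16LXRa arrays were at levels not detected. It differed by -0.97 (SE 0.26, unadjusted p = 0.00452 and adjusted p = 0.998 in limma). Cxcl9, a chemokine that interferon-γ induces, was at 8.27, 8.83, 7.91 and 7.30 in VP16LXRa 5 to 8, against 8.92, 10.06, 9.53 and 8.76 in controls 1 to 4. Its groups overlapped by the narrow margin between VP16LXRa 6 and control 4, and it differed by -1.24 (SE 0.39, unadjusted p = 0.0114 in limma). Parp12, an ADP-ribosyltransferase, was at 5.65, 7.77, 5.12 and 8.34 in VP16LXRa 5 to 8, against 8.39, 9.56, 9.23 and 7.28 in controls 1 to 4. It differed by -1.89 (SE 0.77, unadjusted p = 0.0365 in limma), with control 4 between the VP16LXRa arrays. Slfn1, a gene of T cell quiescence, was detected on 0 VP16LXRa arrays and 4 controls. It was at 4.95, 4.81, 4.70 and 4.88 in VP16LXRa 5 to 8, against 5.16, 6.77, 5.37 and 5.16 in controls 1 to 4. The measured means were 4.84 in VP16LXRa and 5.61 in control tumours, with an adjusted p of 0.998 in limma. The control mean was 1.44-fold above the detection level of the VP16LXRa arrays, 5.09, but this ratio sets no lower limit for the difference between groups. That difference was -0.78 (SE 0.36, unadjusted p = 0.058 in limma), and its interval, from -1.59 to 0.03, included 0. Control 2 raised that control mean, and controls 1, 3 and 4 lay close to the detection level. At an unadjusted p under 0.05 in limma, 3 of the 33 were lower and 0 higher, where 0.669% and 1.89% of all genes were. Groups did not overlap for Cxcl10 and Slfn1, as for 0.719% of all genes with VP16LXRa below. None of the 33 had an adjusted p under 0.05.

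Markers of other cells in a tumour varied between arrays in their own patterns. The 11 tested T and NK cell markers had a mean deviation of 0.53, -0.12, -0.60 and -0.06 in VP16LXRa 5 to 8, against -0.01, 1.17, -0.02 and -0.89 in controls 1 to 4. Control 4 was lowest for these markers as for the interferon-induced genes, but control 2 was high where controls 1 and 3 were not. Their summed signal ran from 3013 to 7188 in VP16LXRa and from 3833 to 8614 in control tumours, 7 of 11 were lower in VP16LXRa, and Cd8a, Gzmb and Ncr1 were detected on no array. The 11 macrophage and dendritic cell markers were at -0.28, 0.12, 0.0043 and -0.30 in VP16LXRa 5 to 8, against 0.06, 0.44, -0.54 and 0.50 in controls 1 to 4, so control 4 was the highest. Their summed signal ran from 2018 to 2787 in VP16LXRa and from 1659 to 3868 in control tumours, 9 of 11 were lower in VP16LXRa, and Itgax, Xcr1 and Zbtb46 were detected on no array.

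The 5 B and plasma cell markers had a summed signal from 1001 to 2293 in VP16LXRa and from 856 to 9806 in control tumours, the highest in control 2. Pax5 was detected on no array, and 4 of 5 were lower. All 9 epithelial markers with a probe, which check the labelled intestinal tissue, were detected on at least 4 arrays. They summed to 79612 to 97232 in VP16LXRa and 76508 to 113336 in control tumours, and 8 were lower. The 12 fibroblast and smooth muscle markers summed to 36669 to 63475 in VP16LXRa and 3499.8 to 47392 in control tumours, with 10 higher in VP16LXRa and control 3 far below the other arrays. The 8 endothelial markers summed to 1487 to 2913 in VP16LXRa and 807 to 3175 in control tumours, with 6 higher. The part of any of these cells in the levels of the interferon-induced genes was not tested.

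**Figure D5:**
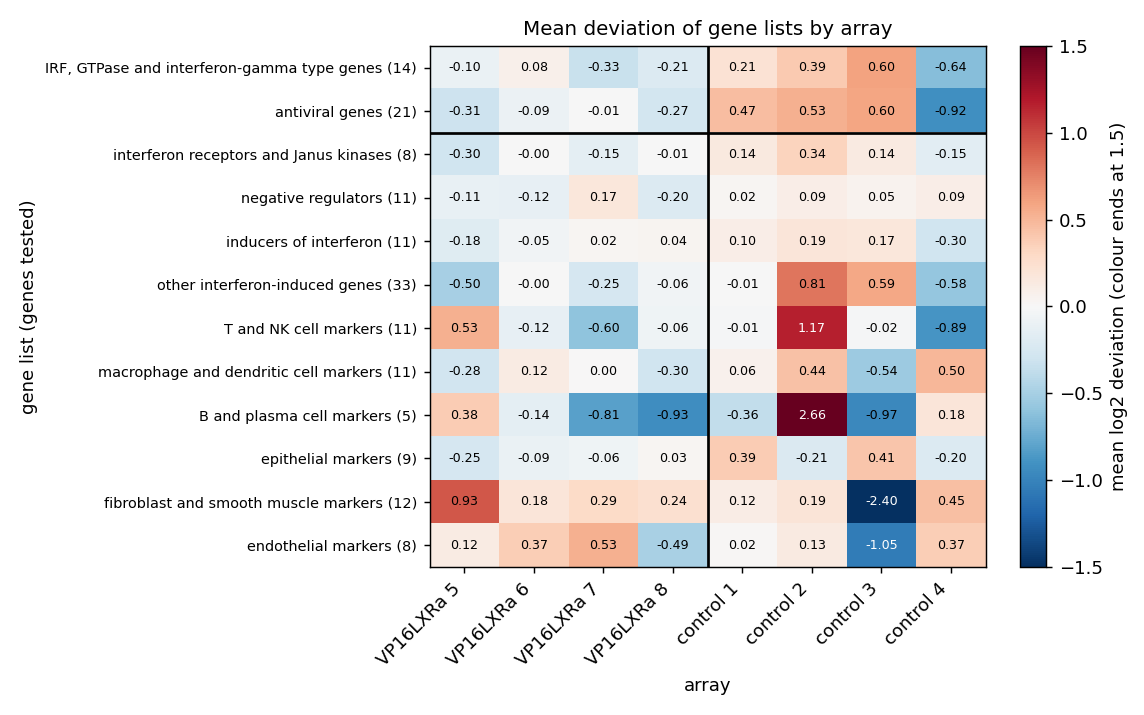
Log2 level minus each gene's 8-array mean, averaged over the tested genes of each list, by array, with VP16LXRa to the left of the line. The 2 rows of interferon-induced genes are above 0 in controls 1 to 3 and lowest in control 4, and the cell marker rows below do not repeat that order.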

How the data were processed

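Biotinylated cRNA from 8 tumours was hybridised to Illumina BeadChips. The deposited scanner table holds one intensity per probe and array on a linear scale and, per the file headers, a detection p-value for each. The submitters' processing notes name GenomeStudio without a version. Chip type, annotation release and genome build are not stated in the sources used. The authors' processed intensity table was an alternative, floored at 16. Every column of per-sample values was used.

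Intensities were background-corrected by normexp with limma 3.58.1 (R 4.3.3, statmod 1.5.0), with an offset of 16 and with the negative controls estimated through the detection p-values, then quantile-normalized and put on the log2 scale. A probe was tested where 4 or more of the 8 arrays had a detection p below 0.05. Tests were two-sided (lmFit, eBayes), p-values were adjusted by Benjamini-Hochberg over all tested probes, and the threshold was 0.05. A gene is its tested probe with the highest mean. Differences are VP16LXRa minus control. Alternatives covered the background correction, offset, normalization, filter, variance prior, array weights, choice of probe, each array left out and, added after the data were seen, a term for Eif2s3y.

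The members, lists and tests were chosen with earlier results of these data known. Values in every array are given for members with an unadjusted p under 0.05 or without group overlap, for the 5 largest differences and 3 highest means of each class, and where probes differ by over 0.5. Pathway genes are named where groups do not overlap or the unadjusted p is under 0.05, otherwise the 2 smallest p of a list. Irf7, Ifit3, Usp18, Rsad2 and Socs1 were given in full after their values were seen, as were Eif2s3y, Ddx3y, Nr1h3 and Xist. A pathway gene is not reported here and was left out of its list's counts.

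The fit was tested on simulated data of 13426 probes, with 50 changed at each size. It recovered 14 at a log2 change of 1, 34 at 2, 48 at 3 and 50 at 4, with 9 false calls. The number of arrays limits the precision.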

Additional observations from a re-analysis of the deposited data

Results flagged for a closer look

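In 76 sets of 4 arrays (each tested member and each class mean, in each group), 16 had an array far from the other 3 by Dixon's test, where chance gives about 1 in 20, or 3.8. The sets share genes and arrays and are not independent, so 16 cannot be weighed against 3.8. Control 4 was the far array in 11 of the 16. Its mean deviation over all members was -0.81, where the other controls were at 0.37 to 0.60, and over the antiviral genes it was -0.92. It was low for Irf1 (12.75), Irf7 (6.46), Ifit3 (7.11), Oasl1 (9.07), Oasl2 (9.16), Rsad2 (6.23), Mx2 (5.61) and Ifih1 (4.88), and high for Ifitm3 (13.78). In the VP16LXRa group, array 5 was low for Psme2 (6.29) and high for Irf7 (9.22), array 6 was low for Trim25 (6.73) and array 7 low for Ifih1 (5.03). Control 2 was high for Gbp2 (10.53).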

How the results depend on the processing

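No alternative gave a member, or another interferon pathway gene, an adjusted p under 0.05. The count of members at an unadjusted p under 0.05 in limma was 0 with all arrays and between 0 and 16 with one array left out. It was 16 without control 4, where 2.10% of all genes were lower and 4.09% higher at that p. With array weights it was 4, but the share of all genes is not given here, so that count cannot be judged. With the Eif2s3y term, added after the data were seen, the median moved to 0.10 for all members and 0.12 for the IRF, GTPase and interferon-γ type genes, and 17 members were lower. That term turned the sign of 15 genes, to 0.12 for Irf1, 0.19 for Irgm1, 0.12 for Psme1, 0.18 for Parp14, 0.12 for Oasl2, 0.12 for Igtp, 0.46 for Oasl1, 0.52 for Irf8, 0.63 for Irf7, 0.43 for Rsad2, 0.10 for Ifit3, 0.13 for Trim25, 0.50 for Gbp6, 0.10 for Mx2 and 0.24 for Ifih1. Of 345 single-gene values under the other settings with all arrays, 342 kept their sign. The exceptions were Irgm1 (0.012) and Psme1 (0.0034) with cyclic loess and Gbp6 (0.010) as a mean over probes. With one array left out, 236 of 272 kept their sign. The ranges that include a turned sign were -0.22 to 0.14 for Irgm1, -0.12 to 0.13 for Psme1, -0.45 to 0.083 for Parp14, -0.41 to 0.16 for Oasl1, -0.44 to 0.19 for Irf8, -0.81 to 0.25 for Ifi35, -0.98 to 0.13 for Psme2, -1.11 to 0.026 for Rsad2, -0.19 to 0.38 for Bst2, -0.27 to 0.042 for Trim25, -0.48 to 0.21 for Gbp6, -0.26 to 0.040 for Mx2, -0.39 to 0.096 for Ifih1 and -0.30 to 0.025 for Mx1. The causes were not tested. The planned BeadChip block could not be run, as no chip is named in the files. No paired analysis was possible because the titles number the controls 1 to 4 and the VP16LXRa tumours 5 to 8, with no shared number.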
